A study of Vitis vinifera with 45 samples.

Results

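The flavonoid 3',5'-hydroxylase (F3'5'H) transcripts of a tandem array in grapevine were followed in berry skins. The members are the 10 listed identifiers with the prefix VIT_06s0009g, out of 29958 transcripts in the tables, where 295 transcripts carry that prefix. They were VIT_06s0009g02810, VIT_06s0009g02830, VIT_06s0009g02840, VIT_06s0009g02860, VIT_06s0009g02880, VIT_06s0009g02910, VIT_06s0009g02920, VIT_06s0009g02970, VIT_06s0009g03000 and VIT_06s0009g03010. The name F3'5'H comes with this list. None of the identifiers was found in the reference gene table used here (0 matches of 29958), so neither the name nor the labelled tissue, fruit peel, could be checked against annotated genes.

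F3'5'H is a cytochrome P450 enzyme of the flavonoid pathway. It adds hydroxyl groups to the B ring of flavanones and dihydroflavonols and so leads to the trihydroxylated anthocyanins, those of the delphinidin, petunidin and malvidin type. It shares substrates with flavonoid 3'-hydroxylase (F3'H), which leads to the dihydroxylated anthocyanins of the cyanidin and peonidin type. In grapevine the F3'5'H genes lie side by side as copies of high sequence similarity, and in the berry skin they are known for their part in colour and in the make-up of proanthocyanidins.

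The study used the red table grape Crimson Seedless (CS) as the scion throughout. The 5 graft types were graft-free CS on its own roots, self-grafted CS/CS, and the heterografts CS/101-14, CS/110R and CS/SO4 on 3 commercial rootstocks. All vines grew on one site under the same management, and RNA came from the skins of berries pooled from each combination at DAF45, DAF75 and DAF105, where DAF and the number stand for the days since flowering. With 3 replicates in each of 15 groups there were 45 libraries. In the titles the self-graft appears as Crimson and the graft-free vines as Crimson Seedless, an assignment that rests on the letter key of the study's read table. The replicates are described as biological, but nothing says that they came from separate vines, so the p-values measure the spread between these samples. Total counts per library ran from 16387269 to 20765329, with a median of 18442527. In RNA from whole skins, fewer cells of one type and less RNA per cell cannot be told apart.

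The copies shared reads. Of the 318 member counts above 0, only 39 were whole numbers within 0.005 (12.3%), against 88.0% of the counts above 0 over all transcripts. The summed count of the 10 members was a whole number in 39 of the 45 libraries. Reads had thus been divided among the members by the authors' estimate, and the split between copies is less certain than their sum. The summed count ran from 60 to 1872 per library, with a median of 229. All tests on counts were fitted across the whole table with edgeR's quasi-likelihood test. Calls needed a change of more than 1 on the log2 scale in either direction and an adjusted p (Benjamini-Hochberg) of at most 0.05, and a member was tested where at least 3 of the libraries compared held at least 10 counts. A member that reached 10 counts in 1 of the compared groups only was tested because that group was high, so counts of calls are also given without such members.

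In TPM, which is scaled for transcript length and library size, the summed level of the cluster was highest in CS/CS at DAF45 and lowest in CS/SO4 at DAF75. CS/CS at DAF45 had a mean of 87.3 ± 17.2 TPM (SD, n = 3), and its 3 libraries, at 86.7, 70.4 and 104.8 TPM, stood above all other libraries. CS/CS at DAF105 (37.7 ± 23.5), CS/110R at DAF75 (31.4 ± 4.23), CS/CS at DAF75 (28.1 ± 6.43) and CS at DAF45 (24.4 ± 0.167) came next. The middle of the order held CS at DAF75 (15.5 ± 8.14), CS/101-14 at DAF105 (15.5 ± 8.12), CS at DAF105 (13.3 ± 6.72), CS/110R at DAF45 (11.4 ± 6.95) and CS/101-14 at DAF45 (10.8 ± 0.897). Libraries of neighbouring groups overlapped throughout this stretch, so the order from CS/CS at DAF105 down to CS/101-14 at DAF45 is not resolved step by step. The lowest means were those of CS/110R at DAF105 (7.59 ± 1.74), CS/SO4 at DAF45 (6.72 ± 4.09), CS/SO4 at DAF105 (6.30 ± 2.09), CS/101-14 at DAF75 (5.94 ± 1.39) and CS/SO4 at DAF75 (3.72 ± 0.619). Of the 14 pairs of neighbours in the whole order, 11 overlapped. The pairs without overlap were CS/CS at DAF45 with CS/CS at DAF105, CS/101-14 at DAF45 with CS/110R at DAF105, and CS/101-14 with CS/SO4 at DAF75. Only the first of these parted all groups above from all below. CS/SO4 at DAF45, from 3.91 to 11.4 TPM, overlapped both CS/101-14 at DAF45 (9.84 to 11.6) and CS/SO4 at DAF75 (3.04 to 4.24).

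**Figure D1:**
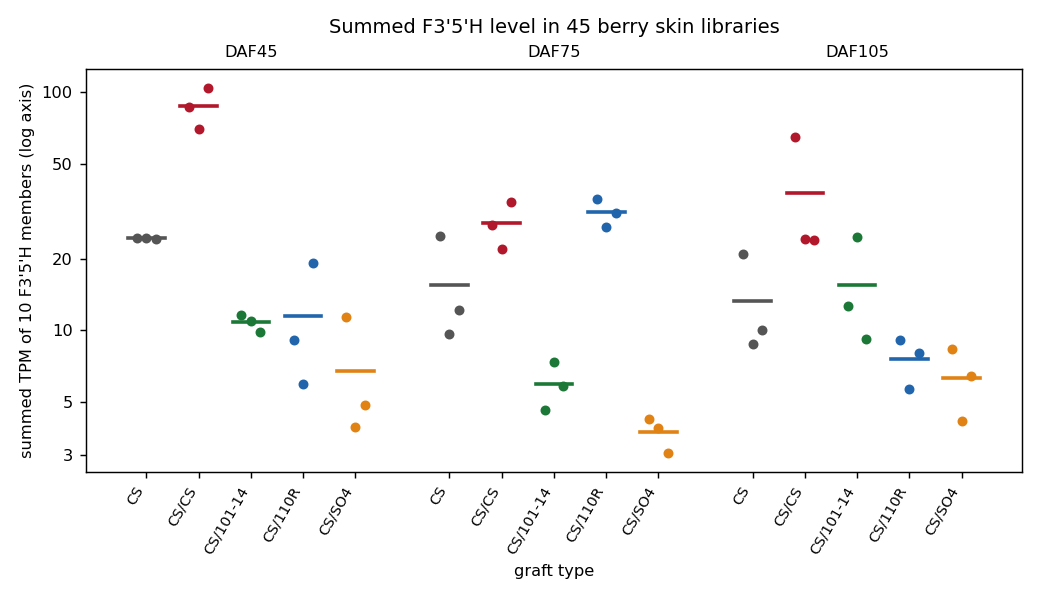
Summed TPM of the 10 members (log axis) in each of the 45 libraries, by graft type and stage, with points for libraries and a line for the mean of 3. The 3 libraries of CS/CS at DAF45, from 70.4 to 104.8 TPM, lie above all others, and those of CS/SO4 at DAF75, from 3.04 to 4.24 TPM, lie below those of every other group at DAF75.

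To see whether grafting changed the cluster early in berry development, each grafted type was compared with CS at DAF45, and these comparisons share the CS libraries. The summed TPM of CS was 24.3, 24.5 and 24.2. The summed counts rose in CS/CS by a log2 fold change of 1.64 (SE 0.13, adjusted p = 3.86e-04), which is 3.13-fold, and no library of CS/CS overlapped with CS. They fell in CS/110R (−1.20, SE 0.35, adjusted p = 0.0470) and in CS/SO4 (−1.89, SE 0.34, adjusted p = 0.0165). CS/101-14, with 11.6, 10.9 and 9.84 TPM, had a log2 fold change of −1.17 (SE 0.13), which just missed the threshold (adjusted p = 0.0502). All 9 heterografted libraries, up to 19.2 TPM, lay below the 3 CS libraries in summed TPM. The call in CS/110R rested on small margins. Its libraries had 9.09, 5.94 and 19.2 TPM, and it was lost on leaving out any 1 CS library (log2 fold changes of −1.22, −1.14 and −1.24 without replicates 1, 2 and 3), CS/110R replicate 1 (−1.05) or CS/110R replicate 2 (−0.90). The call in CS/SO4, with 11.4, 3.91 and 4.84 TPM, was lost without CS replicate 1 (−1.91), CS/SO4 replicate 2 (−1.63) or CS/SO4 replicate 3 (−1.71). That of CS/101-14 was gained without its replicate 1 (−1.17), and also with DESeq2 (−1.17).

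Of the 10 members, 8 were tested for CS/CS against CS at DAF45 and 6 were called, all higher, where 18.2% of all transcripts tested were called. Since VIT_06s0009g02880 reached 10 counts only in CS/CS, its rise was built into its being tested, and 5 of the other 7 were called. The most abundant copy, VIT_06s0009g02830, had 53.5, 41.1 and 62.0 TPM in CS/CS and 12.1, 9.82 and 10.8 TPM in CS, a log2 fold change of 2.08 (SE 0.15, adjusted p = 2.73e-04). The groups were far apart for this copy. VIT_06s0009g02810 had 10.3, 7.09 and 14.7 TPM in CS/CS and 0.525, 0.548 and 0.566 TPM in CS (log2 fold change 4.14, SE 0.30, adjusted p = 2.83e-04). In the other 14 groups the highest library of this copy was at 1.45 TPM. VIT_06s0009g02840 (2.14), VIT_06s0009g02920 (1.77) and VIT_06s0009g02970 (log2 fold change 3.25) rose as well. VIT_06s0009g02880 held 22.2, 21.3 and 45.5 counts in CS/CS against 1.67, 0 and 0 in CS. In summed counts this was 40.7-fold, with a 95% interval of 10.95 to 341.6 that covers counting error only. Not every copy moved. VIT_06s0009g03010, the second copy found in every library, had 5.85, 8.50 and 5.82 TPM in CS/CS and 6.996, 9.30 and 7.67 TPM in CS, which overlapped, and was not called.

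In the heterografts at DAF45 the calls were all in the lower direction. In CS/101-14, 6 members were tested and 0 called, where 0.144% of transcripts were called, or 0 of 5 without VIT_06s0009g02920, which reached 10 counts only in CS. In CS/110R, 2 of the 6 tested were called, where 11% of transcripts were called. They were VIT_06s0009g02840 (−2.25, SE 0.63, adjusted p = 0.0387) and VIT_06s0009g03010 (−1.32, SE 0.28, adjusted p = 0.0153). Both calls depended on single libraries, the first on CS replicates 1 (−2.13) and 3 (−2.11) and CS/110R replicates 1 (−1.92) and 2 (−1.83), and the second on CS/110R replicate 1 (−1.29 without it). In CS/SO4, 5 of the 6 tested were called lower, where 5.25% of transcripts were called, or 4 of 5 without VIT_06s0009g02860, which reached 10 counts only in CS. VIT_06s0009g02830 fell to 4.93, 1.46 and 1.84 TPM (−2.03, SE 0.42, adjusted p = 0.0225) and VIT_06s0009g03010 to 4.88, 1.76 and 2.05 TPM (−1.502, SE 0.38, adjusted p = 0.0381). The other calls were VIT_06s0009g02840 (−2.22), VIT_06s0009g02920 (−1.61) and VIT_06s0009g02860, which held 2.56, 1.31 and 1.34 counts in CS/SO4 and 22.5, 63.6 and 13.7 in CS (21.6-fold lower in summed counts, with a counting interval of 8.97 to 68.1). Leaving out 1 library ended each of these 5 calls at least once. VIT_06s0009g02830 lost it without CS replicate 1 (−1.96) or CS/SO4 replicates 2 (−1.73) or 3 (−1.81), and VIT_06s0009g02840 without CS replicate 1 (−2.10) or CS/SO4 replicate 3 (−2.08). VIT_06s0009g02860 lost it without CS/SO4 replicates 2 (adjusted p = 0.0747) or 3 (adjusted p = 0.0778). VIT_06s0009g02920 and VIT_06s0009g03010 lost it without any of the 3 CS replicates (−1.56 to −1.66 and −1.32 to −1.60) or CS/SO4 replicates 2 (−1.33 and −1.24) or 3 (−1.61 and −1.31). Both also lost it with the replicate number as a block (−1.64 and −1.60).

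**Figure D2:**
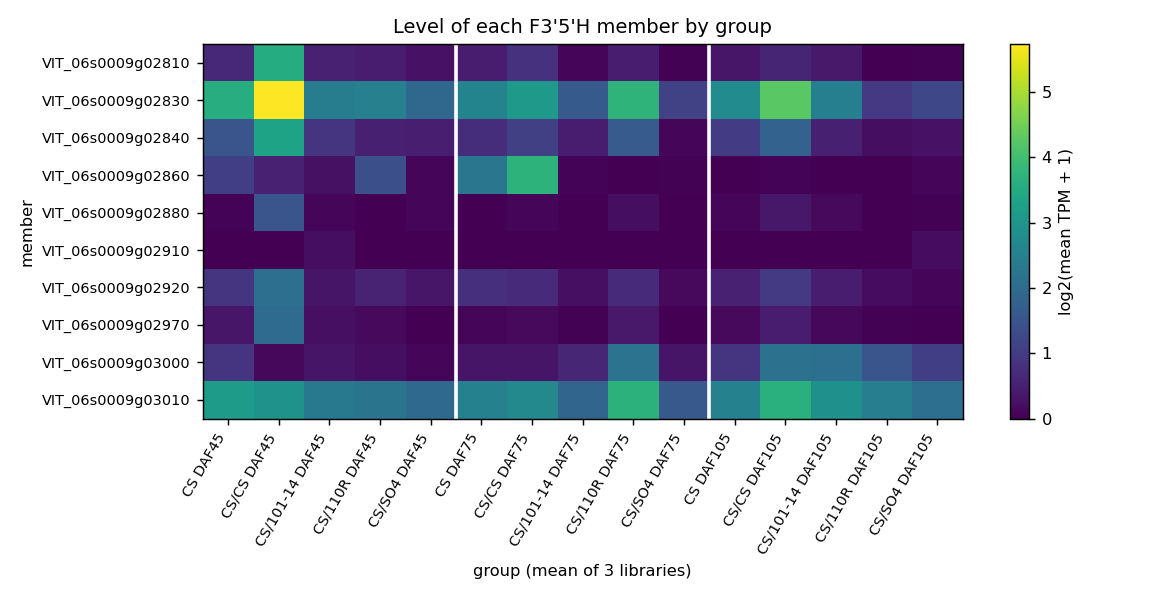
Level of each member, as log2 of the mean TPM of 3 libraries plus 1 (colour), in the 15 groups, with white lines between stages. VIT_06s0009g02830 and VIT_06s0009g03010 are present in all groups, most other copies are brightest in CS/CS at DAF45, and VIT_06s0009g02860 is brightest in CS/CS at DAF75, with 12.1 TPM.

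At DAF75 the heterografts parted from each other. The study describes the berries of all types but CS as turning colour at this stage. On its main axis of expression, which followed stage, the heterografts lay further along than CS and CS/CS. Graft type and progress of ripening cannot be told apart in the comparisons at DAF75. The summed TPM of CS was 24.8, 9.60 and 12.2, and that of CS/110R was 35.7, 27.3 and 31.2, above every CS library. CS/101-14 had 4.604, 7.38 and 5.82 TPM and CS/SO4 had 4.24, 3.87 and 3.04 TPM, both below every CS library. The summed counts fell in CS/SO4 (−2.11, SE 0.42, adjusted p = 0.00373, which is 4.33-fold lower) and in CS/101-14 (−1.45, SE 0.40, adjusted p = 0.0132). CS/110R had a log2 fold change of 0.99 (SE 0.37, adjusted p = 0.0508) and was not called. CS/CS, with 27.8, 21.9 and 34.7 TPM, had 0.96 (SE 0.40, adjusted p = 0.0916) and was not called either. CS replicate 1 decided 3 of these 4 results. Without it CS/110R was called at 1.59 (adjusted p = 5.10e-04), CS/CS at 1.58 (adjusted p = 0.00691), and CS/101-14 fell under the fold threshold at −0.84. CS/110R also passed with RLE size factors (1.004).

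A single copy set CS replicate 1 apart. VIT_06s0009g02860 held 302.2 of its 556 summed counts, while the other CS libraries at DAF75 held 1.29 and 10.3 counts of this copy. The sum of the other 9 members was 253.8, 187.7 and 230.7 counts in the 3 CS libraries, without a gap between them of that size. In CS/CS at DAF75 the same copy was high in each library, with 426.6, 331.5 and 309.2 counts, and made up 44.2 ± 10.2% (SD, n = 3) of the summed TPM. The 9 heterografted libraries of that stage held 5 counts of it together after rounding, and none held more than 3. All 3 CS/110R libraries were at 0, so that the copy was at least 92.8-fold higher in CS than in CS/110R, taking a floor of 3 counts over the group, and nearly all of that lay in CS replicate 1. What set this library apart was not tested. With VIT_06s0009g02860 left out, a choice made after seeing the data, the sum of 9 members was called in CS/110R at 1.54 (SE 0.17, adjusted p = 1.37e-04) and in CS/SO4 at −1.57 (adjusted p = 2.94e-04). CS/CS was at 0.40 (SE 0.28) and CS/101-14 at −0.90 (SE 0.18), neither of them called.

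**Figure D3:**
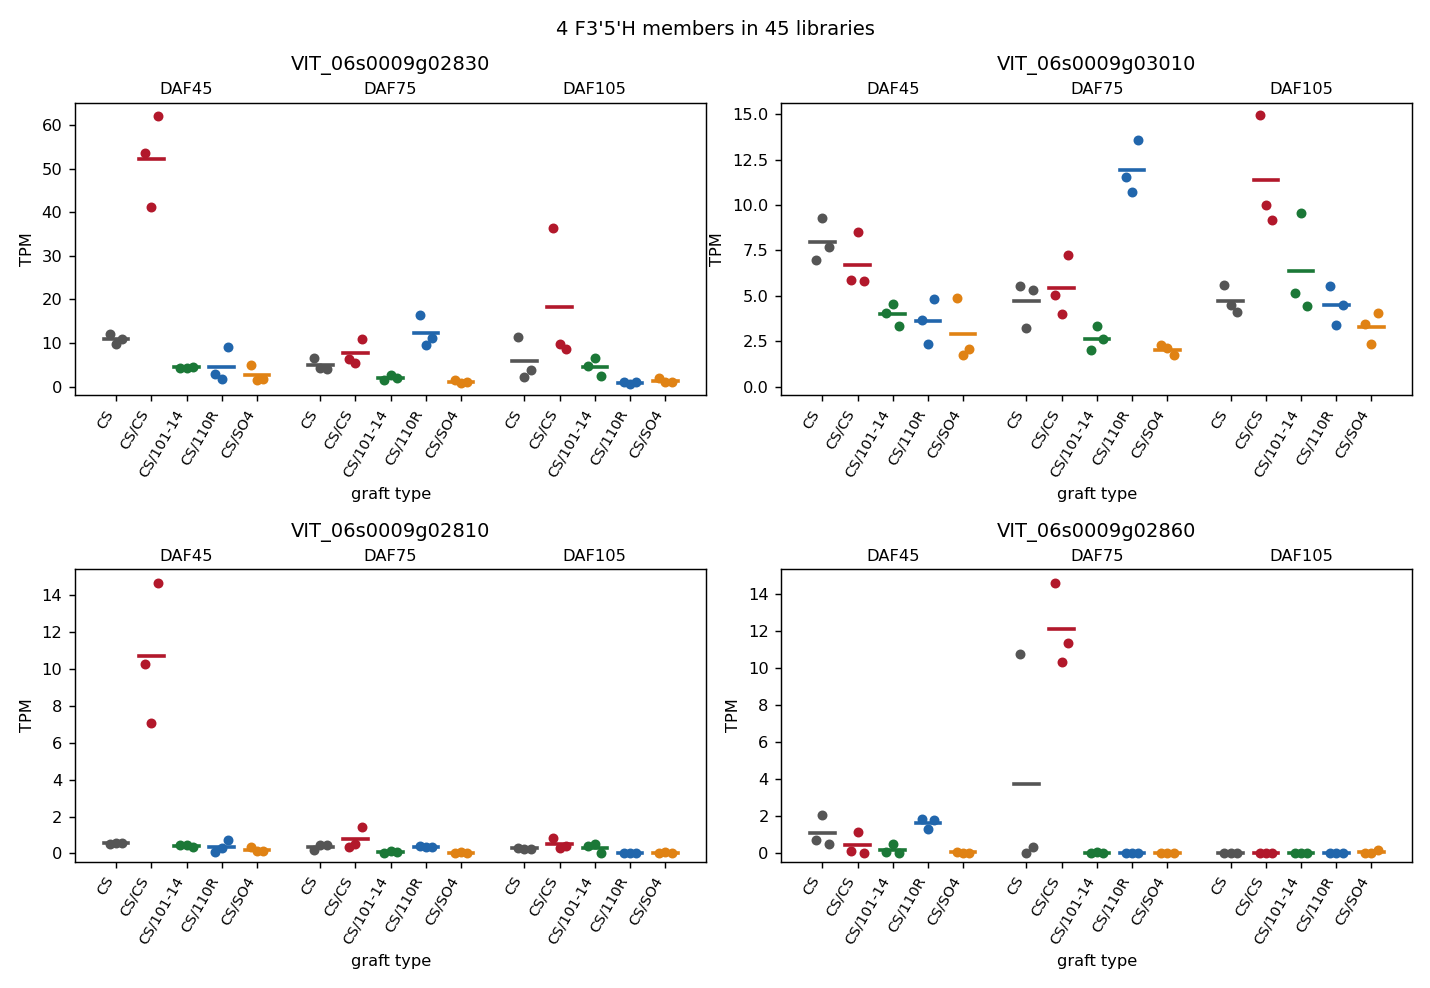
TPM of 4 members in each of the 45 libraries (points) with group means (lines), by graft type and stage. VIT_06s0009g02830 and VIT_06s0009g02810 peak in CS/CS at DAF45, VIT_06s0009g03010 is highest in CS/110R at DAF75 and CS/CS at DAF105, and VIT_06s0009g02860 is high in CS/CS at DAF75 and in 1 of the 3 CS libraries of that stage (10.8 TPM).

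Of the 6 members tested for CS/CS against CS at DAF75, 0 were called, where 15.9% of transcripts were called. VIT_06s0009g02860 had 14.6, 10.3 and 11.4 TPM in CS/CS and 10.8, 0.0443 and 0.353 TPM in CS, so that the groups overlapped through 1 library. In CS/101-14, 2 of 4 tested members were called lower, or 1 of 3 without VIT_06s0009g02920, where 27.9% of transcripts were called. These were VIT_06s0009g02830 (−1.11, SE 0.29, adjusted p = 0.00979) and VIT_06s0009g02920 (−1.74, SE 0.43, adjusted p = 0.00818), which reached 10 counts only in CS. The former fell under the fold threshold without CS replicate 1 (−0.90) or CS/101-14 replicate 1 (−0.95), and missed the adjusted p in one fit of all 45 libraries (−1.12). In CS/SO4 all 4 members tested were called lower, or 2 of 2 without VIT_06s0009g02840 and VIT_06s0009g02920, where 22.9% of transcripts were called. They were VIT_06s0009g02830 (−1.86), VIT_06s0009g02840 (−3.36), VIT_06s0009g02920 (−2.54) and VIT_06s0009g03010 (−1.04), of which VIT_06s0009g02840 and VIT_06s0009g02920 reached 10 counts only in CS. The call of VIT_06s0009g03010 was lost without CS replicates 1 (−0.93) or 3 (−0.95) or CS/SO4 replicate 3 (−0.91).

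In CS/110R at DAF75, 4 of 5 tested members were called higher, where 24.1% of transcripts were called. Without VIT_06s0009g03000, which reached 10 counts only in CS/110R, 3 of 4 were called. VIT_06s0009g02830 had 16.5, 9.46 and 11.1 TPM in CS/110R and 6.59, 4.42 and 4.05 TPM in CS (log2 fold change 1.55, SE 0.29, adjusted p = 0.00223). VIT_06s0009g03010 had 11.5, 10.7 and 13.6 TPM in CS/110R and 5.56, 3.22 and 5.34 TPM in CS (1.58, SE 0.21, adjusted p = 4.26e-04). Neither copy overlapped with CS. VIT_06s0009g02840 rose by 1.87 (SE 0.23, adjusted p = 2.67e-04). VIT_06s0009g03000, the copy next in number to VIT_06s0009g03010, held 15, 16 and 13.1 counts in CS/110R and 1, 0 and 2 in CS, which is 16.5-fold with a counting interval of 5.28 to 83.0. The calls of the other 3 copies held under every alternative tried. VIT_06s0009g02920 was also tested and was at −0.0031 (adjusted p = 0.995).

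At DAF105 fewer differences from CS passed the test. The summed TPM of CS was 21.003, 8.79 and 10.028. CS/CS had 64.9, 24.3 and 24.0 TPM, all above CS, and a log2 fold change of 1.32 (SE 0.48, adjusted p = 0.0650) that was not called. Its replicate 1 held 1324 counts against 479 and 456 in the others. The log2 fold change was 0.76 without that library and 1.85 (adjusted p = 0.0286, called) without CS replicate 1, and DESeq2 called it at 1.33 (adjusted p = 0.0110). CS/101-14, with 12.6, 24.6 and 9.15 TPM, overlapped with CS (−0.03, SE 0.44), and its sign turned without CS replicate 1 (0.50) or CS/101-14 replicates 1 (0.05) or 3 (0.25). CS/110R (−1.05, SE 0.36, adjusted p = 0.0840) and CS/SO4 (−1.21, SE 0.36, adjusted p = 0.0632) were not called. DESeq2 called both (−1.05 and −1.21). CS/SO4 was also called without CS replicate 2 (−1.47), and was at −0.68 without CS replicate 1.

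Few members passed the test at this stage. For CS/CS against CS, 1 of 4 tested was called, where 16.5% of transcripts were called. VIT_06s0009g03010 had 14.97, 9.98 and 9.17 TPM in CS/CS and 5.61, 4.48 and 4.10 TPM in CS (1.17, SE 0.23, adjusted p = 0.00760), without overlap, and the log2 fold change was 0.95 without CS/CS replicate 1, which is under the threshold. In CS/101-14, 0 of 4 were called (2.11% of transcripts). In CS/110R, 1 of 3 was called (6.84% of transcripts). This was VIT_06s0009g02830, with 0.998, 0.675 and 1.12 TPM in CS/110R against 11.4, 2.23 and 3.94 TPM in CS (−2.74, SE 0.64, adjusted p = 0.0255), and the call was lost on leaving out CS/110R replicate 1 (−2.77), 2 (−2.56) or 3 (−2.92). In CS/SO4, 0 of 3 were called (4.5% of transcripts).

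**Figure D4:**
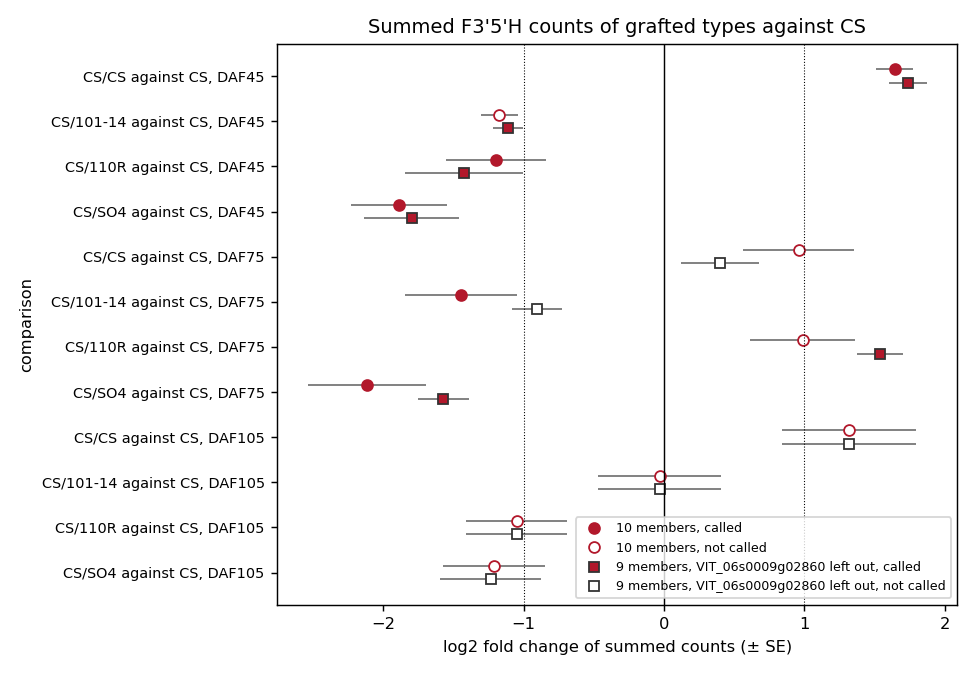
Log2 fold change of the summed counts (± SE) of each grafted type against CS at each stage, for all 10 members (circles) and for 9 members without VIT_06s0009g02860 (squares), filled where called, with dotted lines at −1 and 1. Leaving that copy out moves the comparisons at DAF75, from 0.99 to 1.54 in CS/110R and from 0.96 to 0.40 in CS/CS, and hardly moves those at DAF105.

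The self-graft was also compared directly with the mean of the 3 heterografts, since the comparisons with CS do not test that difference. The summed counts were higher in CS/CS at DAF45 by a log2 fold change of 3.03 (SE 0.29, adjusted p = 2.29e-05, 8.15-fold), at DAF75 by 1.84 (SE 0.14, adjusted p = 3.29e-07) and at DAF105 by 2.09 (SE 0.30, adjusted p = 1.27e-04). These 3 calls held under every other test, scaling, filter and left-out replicate. At DAF75 the value without VIT_06s0009g02860 was 0.73 (SE 0.20), under the threshold. The 3 CS/110R libraries overlapped with those of CS/CS in summed TPM at that stage, with a higher mean (31.4 against 28.1 TPM). At DAF45, 6 of 8 tested members were called, all higher in CS/CS (18.1% of transcripts), or 5 of 7 without VIT_06s0009g02880, which reached 10 counts only there. They included VIT_06s0009g02810 (4.86, SE 0.41, adjusted p = 1.01e-05) and VIT_06s0009g02830 (3.62, SE 0.39, adjusted p = 4.17e-05). At DAF105, 6 of 7 were called, all higher (19.7% of transcripts), among them VIT_06s0009g02830 (3.30, SE 0.40, adjusted p = 3.58e-05) and VIT_06s0009g03010 (1.30, SE 0.25, adjusted p = 9.03e-04). At DAF75, 5 of 6 were called (35.1% of transcripts), or 3 of 4 without VIT_06s0009g02860, which reached 10 counts only in CS/CS, and VIT_06s0009g03000, which did so only in CS/110R. VIT_06s0009g02860, VIT_06s0009g02830 (1.07), VIT_06s0009g02840 (1.47) and VIT_06s0009g02920 (1.26) were higher in CS/CS than the heterograft mean, and VIT_06s0009g03000 was lower (−1.71). These calls do not hold for each heterograft. CS/110R had higher mean TPM than CS/CS for VIT_06s0009g02830 (12.4 against 7.63) and VIT_06s0009g02840 (2.14 against 1.14). For VIT_06s0009g02920 the 2 types were close (0.597 in CS/110R and 0.629 in CS/CS). Without CS/CS replicate 3, VIT_06s0009g02830 was at 0.77 and VIT_06s0009g02840 at 0.53, neither called. VIT_06s0009g02840 also lost its call without CS/110R replicate 2 (1.44), CS/SO4 replicate 1 (1.37) or CS/SO4 replicate 2 (1.28). The lower call of VIT_06s0009g03000 rested on 1 count in each CS/CS library and on CS/110R, since CS/101-14 held 1, 3 and 3 counts and CS/SO4 1, 2.31 and 0. It was lost with DESeq2 (−1.79), without the filter on low counts (−1.71), in one fit of all 45 libraries (−1.71) and with the replicate number as a block (−1.71). It was also lost on leaving out any of the 3 CS/CS libraries (−1.68 to −1.72), CS/101-14 replicates 2 (−1.64) or 3 (−1.63), or CS/SO4 replicates 1 (−1.71) or 2 (−1.43).

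The cluster was then followed through development within each graft type. In CS the summed counts changed by −0.69 (SE 0.38, adjusted p = 0.188) from DAF45 to DAF75 and by −0.02 (SE 0.48) from DAF75 to DAF105, neither called. Without CS DAF75 replicate 1 the first was called (−1.30, adjusted p = 0.00260), as it was for the 9 members (−1.14), and the sign of the second turned (0.58). It also turned without CS DAF105 replicates 2 (0.26) or 3 (0.15). In CS, 2 of 6 tested members fell from DAF45 to DAF75, where 12.2% of transcripts were called, namely VIT_06s0009g02830 (−1.31) and VIT_06s0009g02840 (−1.59), both lost in one fit of all 45 libraries (−1.29 and −1.57). From DAF75 to DAF105, 0 of 4 were called (33.6% of transcripts). VIT_06s0009g02860 was at 0 in all CS libraries at DAF105.

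In CS/CS the sum fell from DAF45 to DAF75 by 1.33 on the log2 scale (SE 0.16, adjusted p = 0.00423), from a range of 70.4 to 104.8 TPM to one of 21.9 to 34.7 TPM, and changed by 0.32 (SE 0.37, not called) from DAF75 to DAF105. Of 8 tested members 7 were called in the first interval (11.3% of transcripts), 6 lower and 1 higher. VIT_06s0009g02830 fell by 2.78 on the log2 scale (SE 0.26, adjusted p = 0.00251), and VIT_06s0009g02810, VIT_06s0009g02840, VIT_06s0009g02880, VIT_06s0009g02920 and VIT_06s0009g02970 fell too. Of these, VIT_06s0009g02880 and VIT_06s0009g02970 reached 10 counts only at DAF45, and 5 of the other 6 were called. VIT_06s0009g02860 rose from 0.156, 1.14 and 0 TPM to 14.6, 10.3 and 11.4 TPM (4.73, SE 0.93, adjusted p = 0.0149). This rise was at 4.57 and no longer called (adjusted p = 0.0512) without CS/CS DAF75 replicate 1. From DAF75 to DAF105, 2 of 6 were called (28.4% of transcripts), or 1 of 5 without VIT_06s0009g02860, which reached 10 counts only at DAF75. VIT_06s0009g02860 went down to 1.31, 1.26 and 1.33 counts, a 313.1-fold difference in summed counts with a counting interval of 107 to 1521, and VIT_06s0009g03010 rose by 1.39 (SE 0.27, adjusted p = 0.00548). The 2 changes were of opposite sign, and the sum of the other 9 members rose by 1.44 (SE 0.44, adjusted p = 0.0318). CS/CS DAF105 replicate 1 turned the sign of the change in the 10-member sum (−0.24 without it).

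In CS/110R the sum rose from DAF45 to DAF75 by 1.47 (SE 0.36, adjusted p = 0.00888) and fell from DAF75 to DAF105 by 2.04 on the log2 scale (SE 0.19, adjusted p = 9.99e-05, 4.12-fold). The libraries of the middle stage, from 27.3 to 35.7 TPM, lay above those of both other stages. Of 6 tested members 5 were called in the first interval (31.5% of transcripts), with VIT_06s0009g02830, VIT_06s0009g02840, VIT_06s0009g03000 and VIT_06s0009g03010 higher. VIT_06s0009g02860 had 54.8, 39.0 and 54.5 counts at DAF45 and 0 in all libraries at DAF75, and was thus at least 43.0-fold higher at DAF45. Without this copy and VIT_06s0009g03000, each of which reached 10 counts at 1 stage only, 3 of 4 were called. VIT_06s0009g02830 (1.63) lost its call without CS/110R DAF45 replicates 1 (1.35) or 2 (1.21) or DAF75 replicates 1 (1.32) or 3 (1.75). In the second interval 4 of 5 were called, all lower (19.4% of transcripts), or 3 of 4 without VIT_06s0009g02920. The 4 were VIT_06s0009g02830 (−3.64, SE 0.33, adjusted p = 8.24e-05), VIT_06s0009g02840 (−3.81), VIT_06s0009g02920 (−2.01) and VIT_06s0009g03010 (−1.33). The call of VIT_06s0009g02920 was lost without CS/110R DAF105 replicate 1 (−2.07), with DESeq2 (−2.05) and without the filter on low counts (−2.03). It was also lost with the replicate number as a block (−2.14), and this copy reached 10 counts only at DAF75.

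CS/101-14 and CS/SO4 had their lowest sums at DAF75. In CS/101-14 the sum changed by −0.95 (SE 0.19, adjusted p = 0.00675) from DAF45 to DAF75, short of the fold threshold, which it passed without DAF45 replicate 3 (−1.07) or DAF75 replicate 2 (−1.08). It rose by 1.39 (SE 0.34, adjusted p = 0.0191) from DAF75 to DAF105, a call lost without DAF75 replicates 1 (1.27) or 3 (1.36) or DAF105 replicate 2 (0.94). In the first interval 1 of 3 tested members was called (31.1% of transcripts), VIT_06s0009g02830 at −1.12, which was −0.96 without DAF75 replicate 1 and missed the adjusted p in one fit of all 45 libraries (−1.11). In the second, 2 of 3 were called (9.93% of transcripts), VIT_06s0009g02830 (1.33) and VIT_06s0009g03010 (1.46). VIT_06s0009g02830 lost this call without 5 of the 6 libraries in turn (0.96 to 1.54), all but DAF105 replicate 3, and in one fit of all 45 libraries (1.30), and VIT_06s0009g03010 without DAF75 replicates 1 (1.28) or 3 (1.45). In CS/SO4 the sum changed by −0.89 (SE 0.38, adjusted p = 0.0745) and by 0.88 (SE 0.24, adjusted p = 0.0148), neither called. The former was called without CS/SO4 DAF45 replicate 2 (−1.17) and was −0.35 without DAF45 replicate 1, and the latter was called without DAF105 replicate 2 (1.08). Of 3 tested members 1 was called in the first interval (29.5% of transcripts), or 0 of 2 without VIT_06s0009g02840. This copy, at −2.71, reached 10 counts only at DAF45, and its call was lost without DAF75 replicate 1 (−2.41). In the second interval 0 of 2 were called (16.6% of transcripts).

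Whether a graft effect differed between DAF75 and DAF105 was tested by an interaction, the difference from CS at DAF75 minus that at DAF105. Since ripening had not gone equally far in all types at DAF75, graft and progress of ripening cannot be told apart in it. For CS/110R it was 2.01 on the log2 scale (SE 0.59, adjusted p = 0.0157), and 4 of 5 tested members were called, all positive (20.6% of transcripts), or 3 of 4 without VIT_06s0009g03000, which reached 10 counts only in CS/110R. These were VIT_06s0009g02830 (4.27, SE 0.76, adjusted p = 8.05e-04), VIT_06s0009g02840 (4.76), VIT_06s0009g03000 (2.66) and VIT_06s0009g03010 (1.74). The call of VIT_06s0009g03000 was lost with DESeq2 (2.80), in one fit of all 45 libraries (2.68) and with the replicate number as a block (2.67). It was also lost without CS DAF75 replicates 1 (2.67) or 2 (2.12), CS DAF105 replicate 2 (2.16) or CS/110R DAF105 replicate 2 (2.44). For the sum of the other graft types the interaction was not called. It was −0.35 (SE 0.68) in CS/CS, −1.44 (SE 0.67, adjusted p = 0.0969) in CS/101-14 and −0.92 (SE 0.63) in CS/SO4. Without CS DAF105 replicate 1 that of CS/101-14 was called (−1.95, adjusted p = 0.0278), and that of CS/CS turned sign without CS DAF75 replicate 1 (0.27) or CS/CS DAF105 replicate 1 (0.25). No member was called in CS/CS (0 of 6, 14.1% of transcripts), CS/101-14 (0 of 5, 24.5%) or CS/SO4 (0 of 4, 20.4%). Without VIT_06s0009g02920, which reached 10 counts only in CS, that of CS/SO4 was 0 of 3.

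One value per library gave a check that does not use the count model. On log2(summed TPM + 1), CS/CS was compared with the other 12 libraries of its stage by an exact two-sided permutation test over 455 assignments, with p adjusted over the 3 stages. Those 12 come from the other 4 graft types, whose mean summed TPM at DAF75 ran from 3.72 to 31.4. The test treats single libraries as units, so its p does not measure how graft types vary. At DAF45 the mean was 6.45 ± 0.28 in CS/CS and 3.63 ± 0.83 in the others, a difference of 2.81 (exact permutation p = 0.0044, the smallest the test allows, adjusted p = 0.0132), and all 3 CS/CS libraries exceeded all others. At DAF105 the difference was 1.72 (exact permutation p = 0.0132, adjusted p = 0.0198). At DAF75, where CS/110R overlapped with CS/CS, it was 1.35 (exact permutation adjusted p = 0.105). Leaving out 1 CS/CS library kept the differences between 2.67 and 2.96 at DAF45 and between 1.26 and 1.96 at DAF105, with adjusted exact permutation p-values of 0.0659 to 0.0989 in place of those above, where the smallest unadjusted p with 2 CS/CS libraries is 0.022.

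The members did not share one pattern. Over all 45 libraries VIT_06s0009g02830 held 43.9% of the members' TPM and VIT_06s0009g03010 26.9%, and both were above 0 in every library. VIT_06s0009g02840 and VIT_06s0009g02920 were above 0 in 44 libraries each, VIT_06s0009g02810 and VIT_06s0009g03000 in 36, VIT_06s0009g02970 in 26, VIT_06s0009g02860 in 25 and VIT_06s0009g02880 in 15. VIT_06s0009g02910 was above 0 in 2 libraries, with at most 1.11 counts, and was never tested. On log2(TPM + 1) over the 45 libraries, which share groups and stages, VIT_06s0009g02830 had r = 0.943 with VIT_06s0009g02840 and 0.928 with VIT_06s0009g02920, while VIT_06s0009g02810 had r = 0.951 with VIT_06s0009g02970. VIT_06s0009g03000 had r = 0.646 with VIT_06s0009g03010 and 0.135 with VIT_06s0009g02830. VIT_06s0009g02860 had r = 0.101 with the sum of the other 9 members. These correlations describe the libraries, and copies that share reads are not independent.

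The make-up of the sum therefore differed between groups. In CS/CS at DAF45 VIT_06s0009g02830 made up 59.8% of the summed TPM and VIT_06s0009g02810 11.99%, against 44.8% and 2.24% in CS. The share of VIT_06s0009g03010 ran from 8.13% in CS/CS at DAF45 to 59.0% in CS/110R at DAF105. In the latter group VIT_06s0009g02830 was at 12.3%, its lowest share of any group. VIT_06s0009g03000 was at 24.4% of the summed TPM there but at only 10, 6 and 10 counts, and its effective length, computed from the counts and TPM, was 0.288 times that of VIT_06s0009g02830.

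**Figure D5:**
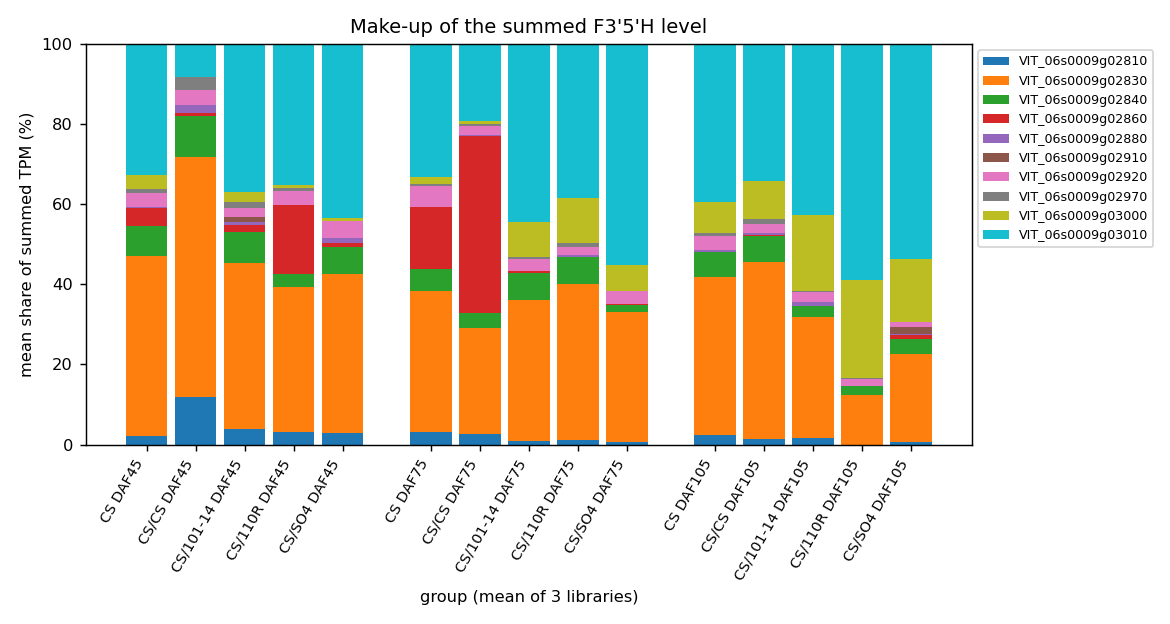
Mean share of the summed TPM held by each member (stacked bars, in %, mean of 3 libraries) in the 15 groups. VIT_06s0009g02830 and VIT_06s0009g03010 hold most of the sum in most groups, VIT_06s0009g02860 holds 44.2% in CS/CS at DAF75, and VIT_06s0009g03010 and VIT_06s0009g03000 together hold most of it in CS/110R at DAF105.

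Beside the cluster stood the 8 transcripts that the study's primer table names as phenylpropanoid and flavonoid genes, with names taken from that table unchecked. The names stand for phenylalanine ammonia-lyase (PAL1), 4-coumarate-CoA ligase and ligase-like genes (4CL1, 4CLL2, 4CLL5), chalcone synthase (CHS) and chalcone isomerase (CHI). The others are flavanone 3-hydroxylase (F3H) and leucoanthocyanidin dioxygenase (LDOX). Enzymes of these names act before and after F3'5'H on the way to anthocyanins. Whether these transcripts encode such enzymes could not be checked here, so the counts below describe the listed transcripts and not the pathway. The names serve as labels only. The transcript named CHI had a mean of 18066.6 TPM in CS/110R at DAF75, where that named F3H had 741.6 TPM. At DAF45, for CS/CS against CS, 1 of 7 tested was called higher (4CL1) and 2 lower (4CLL5 and CHI), where 18.2% of all transcripts tested were called. At DAF75 each of the heterografts had 4 of 7 tested called higher than CS (4CLL5, CHI, F3H and LDOX) and 1 lower (4CLL2). Of all transcripts tested at that stage, 22.9% were called with SO4 as the rootstock, 24.1% with 110R and 27.9% with 101-14. The transcript named F3H, after the enzyme that makes dihydroflavonol substrates of F3'5'H, was higher by 1.86 in CS/110R, 1.77 in CS/101-14 and 1.29 in CS/SO4. In the same comparisons the summed F3'5'H counts were called lower in CS/SO4 (−2.11) and CS/101-14 (−1.45). They were at 0.99 in CS/110R, not called. The call in CS/101-14 was lost without CS replicate 1 (−0.84) or without VIT_06s0009g02860 (−0.90). With that copy left out, CS/110R was called higher at 1.54. At DAF105, for CS/CS against CS, 3 of 8 tested were called higher (PAL1, 4CL1 and CHS) and 1 lower (LDOX), where 16.5% of transcripts were called. CS/110R (6.84% of transcripts) and CS/SO4 (4.5%) had 4CL1 alone higher of 6 tested, and CS/101-14 (2.11%) had 0 of 7 called. Of the 7 tested at DAF45, 3 were lower in CS/110R (4CLL2, 4CLL5 and CHS), where 11% of transcripts were called. In CS/SO4 1 was lower (4CLL5, 5.25% of transcripts) and in CS/101-14 0 were called (0.144%). At DAF75 CS/CS had 4CL1 higher and 4CLL5 and CHI lower of 7 tested (15.9% of transcripts).

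The summed level was also set against F3H in each library. The summed F3'5'H TPM was 34.0 ± 4.58% (SD, n = 3) of the F3H TPM in CS/CS at DAF45 and 16.2 ± 2.39% in CS. The other types at DAF45 were at 2.76 to 5.94% on average. At DAF75 it was 17.9 ± 1.29% in CS/CS, 6.39 ± 2.98% in CS, 4.28 ± 0.853% in CS/110R, 0.883 ± 0.453% in CS/101-14 and 0.743 ± 0.292% in CS/SO4. CS/CS libraries thus lay above all others at both stages. On the log2 scale, with 0.1 TPM added to both values, CS/CS differed from the other 12 libraries by 2.53 at DAF45 and 3.18 at DAF75 (each with an exact permutation p = 0.0044 and an adjusted p of 0.00659). Here too the test treats libraries, not graft types, as units. Without VIT_06s0009g02860 the difference at DAF75 was 2.40. The F3H level in TPM itself was lower in CS/CS at DAF75, at 156.5 ± 27.5, than in CS (240.6 ± 19.2) and the heterografts (means of 530.1 to 741.6), and its counts were lower than in the heterografts by a log2 fold change of −2.26 (adjusted p = 1.12e-06). At DAF105 the group means ran from 0.932% in CS/SO4 to 4.65% in CS/CS, and the difference was 1.38 (exact permutation p = 0.0176, adjusted p = 0.0176), which was 1.02 (adjusted exact permutation p = 0.0879) without CS/CS replicate 1. F3H itself was higher at DAF105 than at DAF75 in CS (1.498) and CS/CS (2.63). It was not called over this interval in CS/101-14 (0.11, edgeR adjusted p = 0.749), CS/110R (−0.55) or CS/SO4 (0.57). In CS/110R (edgeR adjusted p = 0.00101) and CS/SO4 (edgeR adjusted p = 0.0121) only the fold threshold was missed. The ratio to F3'H was not computed, since no transcript could be identified as F3'H here.

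Among 17666 transcripts with a mean of at least 1 TPM outside the cluster, the 5 most like the summed level in pattern over the 45 libraries were VIT_13s0019g04750 (r = 0.730), VIT_17s0000g02700 (0.722), VIT_03s0088g00260 (0.714), VIT_16s0098g01160 (0.712) and VIT_17s0000g03390 (0.702), by Pearson's r of log2(TPM + 1). All 5 had their highest group mean in CS/CS at DAF45, from 3.67 TPM for VIT_13s0019g04750 to 51.8 TPM for VIT_03s0088g00260. They were picked for likeness to a sum that is highest in this group, so the shared peak is largely built in. None of them matched the reference gene table, and they are named by identifier only.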

How the data were processed

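RNA-seq tables of 45 berry skin libraries were used. Reads were filtered by fastp, HISAT2 mapped them to the 12X assembly of Vitis vinifera, and StringTie and HTSeq served for assembly and counting. The deposited estimated counts were left unnormalized by the authors, and their fractions are not explained in the sources used here. Length and library size had been taken into account by the authors in the deposited TPM. Every column was mapped to a sample (0 unused columns).

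Counts were rounded, and the sums of 10 and of 9 members were added as rows to the table of all transcripts. The quasi-likelihood test of edgeR 4.0.16 with TMM (R 4.3.3) used only the libraries of the groups compared and adjusted p by Benjamini-Hochberg over all transcripts that reached 10 counts in 3 or more of those libraries. The SE of a log2 fold change was derived as its size divided by the square root of F. The fits were tested on simulated data. Permutation tests were run with scipy in Python 3.11.15. DESeq2 1.42.0, RLE size factors, looser (1 count) and stricter (mean of 1 TPM) filters, a joint fit of the 45 libraries, a replicate block, other pseudocounts and leaving out each replicate were tried as alternatives. The genes named are all members, the pathway genes of the primer table and the 5 transcripts nearest in pattern. The members and lists were chosen with earlier results of these data known. The smallest library held 16387269 counts. A fold against a group at 0 in all libraries is a bound against a floor of 3 counts over the group. Intervals on summed counts are exact at 95% and cover counting error only. Metabolites and RT-qPCR were not analysed here.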

Additional observations from a re-analysis of the deposited data

Results flagged for a closer look

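The difference of CS/110R from CS changed between DAF75 and DAF105, by an interaction test of edgeR across all transcripts. The summed counts were at a log2 fold change of 0.99 at DAF75 and −1.05 at DAF105, neither called. The value at DAF75 minus that at DAF105 was 2.01 on the log2 scale (SE 0.59, adjusted p = 0.0157). Among the members it was 4.27 (adjusted p = 8.05e-04) for VIT_06s0009g02830, 4.76 (adjusted p = 0.00252) for VIT_06s0009g02840, 2.66 (adjusted p = 0.0299) for VIT_06s0009g03000 and 1.74 (adjusted p = 0.00117) for VIT_06s0009g03010. All 4 members were called higher than CS at DAF75, VIT_06s0009g03000 having reached 10 counts only in CS/110R. At DAF105 VIT_06s0009g02830 was called lower (−2.74), VIT_06s0009g02840 (−2.90) and VIT_06s0009g03010 (−0.19) were not called, and VIT_06s0009g03000 was not tested. What lay behind the difference was not tested, and graft and progress of ripening cannot be told apart in it. No formal outlier test was run on groups of 3 libraries.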

How the results depend on the processing

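The direction and call of the summed counts held under every test, scaling, filter and left-out replicate in 10 of 29 comparisons, and in 23 when leaving out a replicate is set aside. With DESeq2, calls were gained for CS/101-14 against CS at DAF45 (−1.17) and, at DAF105, for CS/CS (1.33), CS/110R (−1.05) and CS/SO4 (−1.21). Without the filter on low counts CS/101-14 at DAF45 (−1.18) and CS/SO4 at DAF105 (−1.20) were called, and with a mean of 1 TPM CS/101-14 at DAF45 (−1.17). RLE size factors gave a call for CS/110R at DAF75 (1.004), and one fit of all 45 libraries for CS/CS at DAF105 (1.35). The replicate numbers did not pair the libraries (correlations of −0.286 to 0.415, in 0 of 22 comparisons all over 0.1). With the replicate block, calls were gained for CS/110R at DAF75 (1.12), CS/CS at DAF105 (1.31) and CS/SO4 at DAF105 (−1.13), and the change of CS from DAF75 to DAF105 turned to 0.018. Leaving out VIT_06s0009g02860, chosen after seeing the data, added calls for CS/101-14 at DAF45 (−1.11), CS/110R at DAF75 (1.54), CS from DAF45 to DAF75 (−1.14) and CS/CS from DAF75 to DAF105 (1.44). It removed those of CS/101-14 at DAF75 (−0.90) and of CS/CS against the heterografts at DAF75 (0.73), and turned CS from DAF75 to DAF105 to 0.54. Apart from that member's own removal and the left-out libraries, the cause was not tested.

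Leaving out 1 replicate gave these ranges of log2 fold change against CS where a call or sign changed. At DAF45 they were −1.27 to −1.08 in CS/101-14, −1.73 to −0.90 in CS/110R and −2.44 to −1.63 in CS/SO4. At DAF75 they were 0.67 to 1.58 in CS/CS, −1.75 to −0.84 in CS/101-14 and 0.69 to 1.59 in CS/110R. At DAF105 they were 0.76 to 1.85 in CS/CS, −0.47 to 0.50 in CS/101-14 and −1.47 to −0.68 in CS/SO4. Between stages the ranges were −1.30 to −0.39 and −0.52 to 0.58 in CS, −0.24 to 0.56 in CS/CS (DAF75 to DAF105), −1.08 to −0.82 and 0.94 to 1.67 in CS/101-14, and −1.17 to −0.35 and 0.73 to 1.08 in CS/SO4. The interactions ran from −0.85 to 0.27 in CS/CS and −1.95 to −0.81 in CS/101-14. The library-level difference of CS/CS ran from 2.67 to 2.96 at DAF45 and from 1.26 to 1.96 at DAF105, and that of the ratio to F3H from 1.02 to 1.56 at DAF105. Of the 70 calls of single members, 46 held under every alternative in which the member was tested and none reversed. One fit of all 45 libraries ended 7 of them, the replicate block 5 (among them VIT_06s0009g03000 for CS/CS against the heterografts at DAF75, −1.71), DESeq2 3 and the looser filter 2, and no other setting apart from a left-out library ended any. Copies with few counts, such as VIT_06s0009g02910, were beyond what this depth could test.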
